A study of Mus musculus with 14 samples.

Results

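The receptors for the Fc part of IgG were read in the spleens of 14 mice from 7 probes for 6 genes, of 24908 genes and 31766 probes tested in all. The genes are Fcgr1, Fcgr3 and Fcgr4, which encode activating receptors, Fcer1g, which encodes the signalling subunit they share, Fcgr2b, which encodes the inhibitory receptor, and Fcgrt, which encodes the heavy chain of the neonatal receptor FcRn. The members were taken by name and not by their values, and every probe whose RefSeq accession belongs to one of these symbols was used. Each of the 7 probes was well above background on all 14 arrays, and none was saturated.

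The mice were immunized with complete Freund's adjuvant and collagen type 2 (CFA + CII), the protocol of collagen-induced arthritis, and splenocyte RNA was taken 2 weeks later. There were 7 wild-type mice (WT, strain C57BL/6) and 7 mice homozygous for the golden ticket allele of Sting (Sting gt/gt, Tmem173gt), with a labelled age of 10 to 14 weeks, which the methods give as the age when the arthritis model was started. Per the study's methods, the allele was made by ENU mutagenesis, also on the C57BL/6 background, and red blood cells were lysed. The WT mice were purchased whereas the Sting gt/gt mice came from another laboratory, so genotype and mouse source cannot be told apart. No group was left without immunization, so every value below describes immunized spleen.

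IgG bound to an antigen engages these receptors on macrophages, monocytes, neutrophils, dendritic cells, NK cells and B cells. Fcgr1, Fcgr3 and Fcgr4 have no signalling motif of the kind that Fcer1g carries, and the Fcer1g chain both brings them to the surface and passes the signal to the kinase Syk. Fcgr2b is the inhibitory counterpart, the main Fc receptor of B cells, and recruits the phosphatase encoded by Inpp5d (SHIP-1). Fcgrt works inside cells and protects IgG from breakdown. In mouse models of antibody-driven arthritis the balance of the activating receptors against Fcgr2b is known to set how strongly immune complexes act, and Fcgr1 and Fcgr4 are known as genes that interferon raises.

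The 250 bases before the annotated start are shown for the activating receptors and for their subunit, since interferon and the myeloid factor PU.1 are known to act on genes of this group. They are RefSeq sequences on GRCm38.p6, written 5′ to 3′ on the gene's strand, and promoters of all 6 genes were matched. Capitals mark 3 motifs, namely the interferon-gamma activated site TTCNNNGAA, the interferon-stimulated response element (GAAA repeated after any 2 bases) and the PU.1 box GAGGAA, all read on either strand.
Fcgr1, chr3:96293970-96294219, minus strand: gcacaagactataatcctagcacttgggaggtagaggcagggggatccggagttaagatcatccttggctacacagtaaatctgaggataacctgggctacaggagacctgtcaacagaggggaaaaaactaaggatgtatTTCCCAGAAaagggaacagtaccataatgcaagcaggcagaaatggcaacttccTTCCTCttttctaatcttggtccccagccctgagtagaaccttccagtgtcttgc
Fcgr4, chr1:171018676-171018925, plus strand: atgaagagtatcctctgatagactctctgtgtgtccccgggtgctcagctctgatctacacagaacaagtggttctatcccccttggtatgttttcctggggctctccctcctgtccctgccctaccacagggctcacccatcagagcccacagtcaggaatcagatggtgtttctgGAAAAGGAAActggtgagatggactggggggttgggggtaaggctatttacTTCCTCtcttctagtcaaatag
Fcgr3, chr1:171059395-171059644, minus strand: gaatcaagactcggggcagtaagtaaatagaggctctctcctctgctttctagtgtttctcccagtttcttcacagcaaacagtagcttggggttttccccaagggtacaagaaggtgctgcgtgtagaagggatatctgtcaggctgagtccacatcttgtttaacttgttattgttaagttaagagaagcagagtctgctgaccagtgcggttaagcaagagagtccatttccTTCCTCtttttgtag
Fcer1g, chr1:171234350-171234599, minus strand: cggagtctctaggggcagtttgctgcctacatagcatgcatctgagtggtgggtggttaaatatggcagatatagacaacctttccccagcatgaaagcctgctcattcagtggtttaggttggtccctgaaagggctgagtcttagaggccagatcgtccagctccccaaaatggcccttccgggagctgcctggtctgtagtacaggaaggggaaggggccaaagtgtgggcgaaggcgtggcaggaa
The Fcgr1 stretch held TTCCCAGAA, 109 to 101 bases before the start, and a PU.1 box 55 to 50 bases before it. The Fcgr4 stretch held GAAAAGGAAA, 73 to 64 bases before the start, and a PU.1 box 22 to 17 bases before it. In Fcgr3 the capitals are a PU.1 box 15 to 10 bases before the start of one annotated transcript, and a further start 9 bases upstream gave the same box. None of the 3 motifs was found in these windows of Fcer1g, Fcgr2b and Fcgrt. For comparison, 7.02% of 32851 mouse promoters of the same length held the first motif, 2.98% the second and 23.3% the third. A match is a string of letters and not a measured binding site. Fcgr2b, Fcgr4, Fcgr3 and Fcer1g lie together on chromosome 1, Fcgr1 lies on chromosome 3 and Fcgrt on chromosome 7.

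For none of the 6 genes did the test show a difference between WT and Sting gt/gt spleens beyond the spread among the mice of each group. Signals are given on a log2 scale on which 0 is the 75th percentile of the same array and 1 unit is a doubling, and a difference of these values is a log2 fold change (Sting gt/gt over WT). By limma across all genes, 0 of the 6 passed an unadjusted p of 0.05, the threshold of the study, against 3.48% of all genes, and 0 passed an adjusted p of 0.05, against 0.00401% (every member's adjusted p was 1.0). The differences ran from -0.08 (Fcgr2b) to 0.25 (Fcgr3), with 5 of 6 above 0 and a median of 0.13, beside 13565 of 24908 genes above 0 and a median of 0.02 for all genes. The groups of 7 overlapped on each of the 7 probes, whereas they lay fully apart for 0.0442% of all genes. The plot of log2 signal by mouse shows each value.

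**Figure D1:**
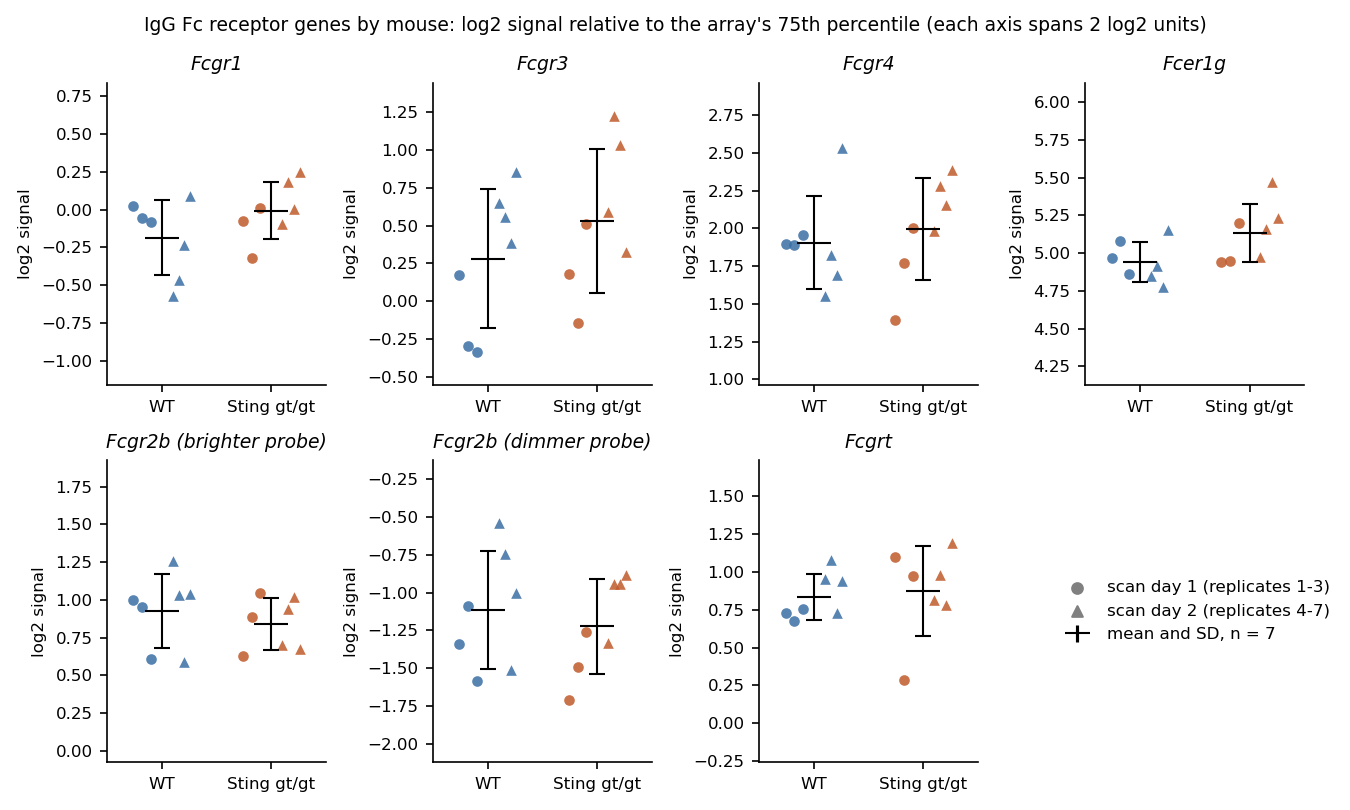
Log2 signal of the 7 probes in each of the 14 mice, relative to the 75th percentile of the array, with WT in blue and Sting gt/gt in orange. Circles are replicates 1 to 3 and triangles replicates 4 to 7, black bars are the mean and SD of 7 mice, and every axis spans the same width. The 2 groups overlap on every probe, and the Fcgr3 triangles lie mostly above its circles.

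Fcgr1 encodes the high-affinity activating receptor, which binds single IgG molecules. Its log2 signal spanned -0.57 to 0.09 in WT mice (median -0.08) against -0.32 to 0.25 in Sting gt/gt animals (median 0.00). The groups overlapped, with 5 of 7 Sting gt/gt mice above the WT median and 2 above the highest WT mouse, while WT replicates 4 and 5 were the lowest of all 14. Sting gt/gt mice were higher by a log2 fold change of 0.18 (SE 0.12, limma p = 0.175, exact permutation p = 0.161), which is a ratio of 1.13 with a 95% interval of 0.941 to 1.36.

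Fcgr3 encodes a low-affinity activating receptor for immune complexes, present on NK cells and most myeloid cells. Its log2 signal spanned -0.34 to 0.85 in WT mice (median 0.38) against -0.15 to 1.23 in Sting gt/gt animals (median 0.51). The highest values were those of Sting gt/gt replicates 5 and 6, and the lowest those of WT replicates 2 and 3. The log2 fold change of 0.25 was the largest of the 6 but also the least precise (SE 0.23, limma p = 0.302, exact permutation p = 0.329), with an interval of the ratio from 0.842 to 1.68. The spread within groups was 0.47, above that of 79.2% of all genes, whose median was 0.31.

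Fcgr4 encodes the activating receptor that binds IgG2 subclasses on monocytes, macrophages and neutrophils. Its log2 signal spanned 1.55 to 2.53 in WT mice (median 1.89) against 1.39 to 2.39 in Sting gt/gt animals (median 2.0). Here 1 WT mouse, replicate 7, was the highest of all 14, and Sting gt/gt replicate 1 was the lowest. Between the genotypes the log2 fold change was 0.09 (SE 0.17, limma p = 0.600, exact permutation p = 0.608), with an interval of the ratio from 0.831 to 1.36.

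Fcer1g had a log2 signal of 4.78 to 5.15 in WT mice (median 4.91) against 4.94 to 5.47 in Sting gt/gt animals (median 5.16). All 7 Sting gt/gt mice lay above the WT median and 4 of 7 above the highest WT mouse, though the lowest Sting gt/gt mice still fell inside the WT range. The log2 fold change of 0.19 (SE 0.10) had the smallest p of the 6 genes, 0.0864 by limma and 0.0530 by an exact permutation test, two-sided, with 3432 ways of splitting the arrays. Neither passed the threshold, and the interval of the ratio was 0.979 to 1.33. This was also the tightest of the members, with a spread within groups of 0.17, and 10.7% of all genes had a smaller one.

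The inhibitory receptor gene Fcgr2b was read by 2 probes of different transcript accessions. On the brighter probe the log2 signal spanned 0.59 to 1.26 in WT mice (median 1.0) against 0.63 to 1.04 in Sting gt/gt animals (median 0.89). On the dimmer probe it spanned -1.58 to -0.54 in WT mice (median -1.09) against -1.71 to -0.89 in Sting gt/gt animals (median -1.26). The groups overlapped on both, and WT replicate 4 was the highest mouse on each. The log2 fold changes of the probes were close to each other, -0.08 (SE 0.12, limma p = 0.50, exact permutation p = 0.487) and -0.11 (SE 0.18, limma p = 0.565, exact permutation p = 0.578), with an interval of the ratio on the brighter one of 0.790 to 1.13.

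Fcgrt had a log2 signal of 0.68 to 1.08 in WT mice (median 0.75) against 0.29 to 1.19 in Sting gt/gt animals (median 0.98). Sting gt/gt replicate 2 was the lowest and Sting gt/gt replicate 7 the highest of all 14 mice, so the Sting gt/gt range enclosed the WT range. The difference was 0.04 on the log2 scale (SE 0.13, limma p = 0.770, exact permutation p = 0.780), with an interval of the ratio from 0.847 to 1.25. B2m, whose product is the partner chain of FcRn, had a log2 fold change of -0.03 (SE 0.11, limma p = 0.807, exact permutation p = 0.780).

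In splenocyte RNA, fewer cells of a type and less RNA per cell cannot be told apart. Levels of different probes were not ranked, because probes differ in brightness per molecule. The extracellular parts of Fcgr2b, Fcgr3 and Fcgr4 are alike in sequence, and whether their probes also bind the others' transcripts was not tested.

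Since the activating receptors and Fcgr2b act on the same immune complexes, the difference of their log2 signals was also taken within each array, where the scaling between arrays cancels. From WT to Sting gt/gt this difference moved by 0.26 for Fcgr1, 0.33 for Fcgr3, 0.17 for Fcgr4 and 0.27 for Fcer1g. The Sting gt/gt mice above the highest WT mouse numbered 1, 3, 1 and 4 of 7 in the same order, so the groups overlapped for every pair. No test was made on these differences.

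The arrays were scanned on 2 days, replicates 1 to 3 of both genotypes on the first and replicates 4 to 7 on the second. This split touches the whole array set, since 5507 of 24908 genes (22.1%) differed between genotypes at an unadjusted p of 0.05 in replicates 4 to 7, but 5.56% in replicates 1 to 3. In a limma model of the 4 groups of genotype and scan day, 2 of the 6 members passed in replicates 4 to 7, and both were higher in Sting gt/gt mice. None of the 6 passed an adjusted p of 0.05 there, against 3.68% of all genes. No member passed in replicates 1 to 3, and none passed the test of a change between the scan days, against 18% of all genes (0.767% at an adjusted p of 0.05).

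Fcgr1 was the first of these. In replicates 4 to 7 its log2 signals were -0.57, -0.46, -0.24 and 0.09 in WT mice and -0.10, 0.18, 0.00 and 0.25 in Sting gt/gt mice. Only WT replicate 7 reached the Sting gt/gt values. The log2 fold change was 0.38 (SE 0.14, limma p = 0.0197, adjusted p = 0.145), and the exact permutation p within these 8 arrays was 0.0857, where the smallest possible is 0.0286. In replicates 1 to 3 the log2 signals were 0.02, -0.05 and -0.08 in WT mice and -0.08, -0.32 and 0.01 in Sting gt/gt mice, a log2 fold change of -0.09 (SE 0.16, limma p = 0.595, exact permutation p = 0.50). Between the scan days the genotype difference changed by 0.47 (SE 0.22), on which the tests were divided (limma p = 0.0508, adjusted p = 0.280, exact permutation p = 0.0414 over 1400 ways to permute within days). The change passed the unadjusted limma threshold under median centring (0.58). It also passed without WT replicate 7 (0.60), Sting gt/gt replicate 3 (0.54) or Sting gt/gt replicate 4 (0.53). Median centring moved the median change of all genes as well, from -0.004 to 0.11, and called 4779 of 24908 genes. With those arrays left out the genes called were 3767, 3630 and 4385, in the same order. The call in replicates 4 to 7 was lost without WT replicate 4, WT replicate 5 or Sting gt/gt replicate 7, where the log2 fold change was 0.29, 0.32 and 0.32. It was also lost without any scaling between arrays, at 0.33.

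Fcer1g was the other. In replicates 4 to 7 its log2 signals were 4.85, 4.91, 4.78 and 5.15 in WT mice and 4.98, 5.16, 5.47 and 5.23 in Sting gt/gt mice. The log2 fold change was 0.29 (SE 0.12, limma p = 0.0374, adjusted p = 0.196, exact permutation p = 0.0571), beside 0.06 (SE 0.14, limma p = 0.688, exact permutation p = 0.70) in replicates 1 to 3. The call was lost when 1 array was left out for 5 of the 8 arrays, WT replicates 4, 5 and 6 and Sting gt/gt replicates 6 and 7, with a log2 fold change down to 0.20. It was also lost under quantile normalization and without scaling (0.25 in each) and in the authors' log2 table (0.25), and when the 8 arrays were fitted alone (0.29). The change between scan days was 0.23 (SE 0.19, limma p = 0.249, exact permutation p = 0.236), so a difference between the days was not shown.

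Fcgr4 depended on 1 mouse and on the scaling. In replicates 4 to 7 its log2 signals were 1.55, 1.82, 1.69 and 2.53 in WT mice and 1.98, 2.28, 2.16 and 2.39 in Sting gt/gt mice. Apart from WT replicate 7, every WT mouse lay below every Sting gt/gt mouse. With all arrays of that day the log2 fold change was 0.30 (SE 0.19, limma p = 0.141, exact permutation p = 0.229). Without WT replicate 7 it was 0.51, past the unadjusted limma threshold (adjusted p = 0.109), as were 4650 of 24908 genes in that fit. That mouse was left out after its value was seen to go the other way. In replicates 1 to 3 the log2 signals were 1.90, 1.89 and 1.96 in WT mice and 1.39, 1.77 and 2.0 in Sting gt/gt mice, a log2 fold change of -0.19 (SE 0.22, limma p = 0.400, exact permutation p = 0.40). The change between the days was 0.50 (SE 0.30, limma p = 0.116, exact permutation p = 0.103). Without that mouse it was 0.71, past the unadjusted limma threshold (adjusted p = 0.162), as were 3767 of 24908 genes. With all arrays under median centring it was 0.61, also past that threshold (adjusted p = 0.251), as were 4779 genes. There the median change of all genes was 0.11 in place of -0.004.

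The other 3 members did not pass on either day. Fcgr3 had log2 fold changes of 0.34 (SE 0.24, limma p = 0.182, exact permutation p = 0.20) in replicates 1 to 3 and 0.18 (SE 0.21, limma p = 0.391, exact permutation p = 0.457) in replicates 4 to 7. Fcgr2b had -0.00 (SE 0.18) and -0.15 (SE 0.16), and Fcgrt 0.07 (SE 0.19) and 0.02 (SE 0.16). On both days WT and Sting gt/gt mice overlapped for each of the 6 genes, while the mice of the 2 genotypes lay fully apart for 9.23% of all genes in replicates 1 to 3 and for 14.7% in replicates 4 to 7. In those replicates the difference to Fcgr2b within each array moved by 0.52 for Fcgr1, 0.33 for Fcgr3, 0.45 for Fcgr4 and 0.43 for Fcer1g. In replicates 1 to 3 it moved by -0.09 for Fcgr1, 0.34 for Fcgr3, -0.19 for Fcgr4 and 0.06 for Fcer1g, so the sign differed between the days for Fcgr1 and Fcgr4. For Fcer1g alone of these pairs the groups of replicates 4 to 7 did not overlap, at 3.59 to 4.19 in WT mice and 4.22 to 4.56 in Sting gt/gt mice. The 14.7% above is for single genes. The share of all genes whose difference to Fcgr2b lay apart was not computed, so this separation is given without weight.

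**Figure D2:**
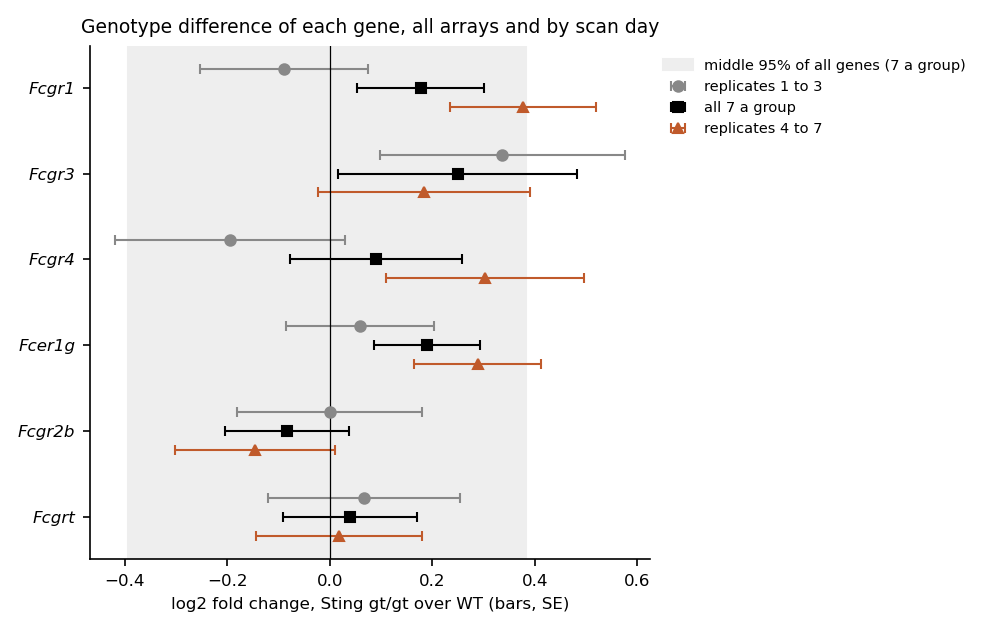
Log2 fold change (Sting gt/gt over WT) of the 6 genes on the horizontal axis, with bars of 1 SE, for all 7 mice a group (black squares), replicates 1 to 3 (grey circles) and replicates 4 to 7 (orange triangles). The grey band holds the middle 95% of all genes for 7 mice a group. Fcgr1 and Fcgr4 lie on opposite sides of 0 on the 2 scan days, at -0.09 and 0.38 and at -0.19 and 0.30.

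In replicates 4 to 7 the markers of 11 cell types were read beside the members, and the counts of those that passed stand against the 22.1% of all genes called there. For monocytes 7 of 8 markers were above 0 (2 passed, near that share, median log2 fold change 0.34), and their summed level, in multiples of the array's 75th percentile, was 109 to 139 in WT mice and 114 to 163 in Sting gt/gt mice. For neutrophils it was 10 of 11 (3 passed above 0 and 1 below, median 0.28, summed levels 905 to 1025 and 811 to 1358). For B cells it was 0 of 9 (6 passed below 0, median -0.49, summed levels 131 to 184 and 106 to 124). For mast cells and basophils, which carry Fcer1g, it was 8 of 8 (3 passed above 0, median 0.40, summed levels 12.4 to 16.2 and 13.1 to 23.2). Of 8 plasma cell markers 5 passed above 0 (median 0.44, summed levels 84.3 to 109 and 115 to 160), and of 8 markers of endothelium and stroma 3 did (median 0.28, summed levels 27.5 to 33.8 and 29.8 to 42.6). Of 8 erythroid markers 2 passed below 0 (median -0.34, summed levels 797 to 919 and 734 to 877), and of 8 dendritic cell markers 1 passed in each direction. Macrophage markers had a median of -0.07, and none of them passed, nor did any of T cells and NK cells. In replicates 1 to 3 several medians had the opposite sign. They were 0.25 for B cells, -0.10 for plasma cells, -0.07 for neutrophils and 0.14 for macrophages. For mast cells and basophils the median was -0.05, and for endothelium and stroma -0.31. Monocytes (0.10) and erythroid cells (-0.16) kept their sign. The part of these cell types in the differences of Fcgr1, Fcer1g and Fcgr4 was not tested. The slides of replicates 4 to 7 each held 1 genotype, so slide and genotype cannot be told apart there.

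In the scanner signals, Fcgr3 differed more between the scan days than between the genotypes. Its log2 signals were 0.17, -0.30 and -0.34 in WT replicates 1 to 3, but 0.65, 0.55, 0.38 and 0.85 in WT replicates 4 to 7. In Sting gt/gt mice they were 0.18, -0.15 and 0.51, and then 0.59, 1.23, 1.03 and 0.33. Averaged over genotypes the second day was 0.69 above the first (SE 0.16, limma adjusted p = 0.00366). On the brightest probe of each gene, scan day called only Fcgr3 of the 6 members at an unadjusted p of 0.05. Of all genes it called 49.3%, and the other 5 members moved by -0.02 to 0.23. The dimmer Fcgr2b probe moved by 0.43 and was also called by limma at that threshold. Under median centring scan day also called Fcgr4 (0.41), Fcgrt (0.36) and Fcer1g (0.25), where the median of all genes moved by 0.17. The scan days also hold different mice and slides, which cannot be told apart from the scan. In the log2 table that the authors deposited for the same arrays, the Fcgr3 scan-day difference was 0.12, below its genotype difference of 0.22. By scan day, 1.81% of all genes were called in that table.

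That table gave nearly the same genotype differences as the scanner signals. They were 0.19 for Fcgr1, 0.22 for Fcgr3, 0.10 for Fcgr4, 0.18 for Fcer1g and 0.02 for Fcgrt, and on the 2 Fcgr2b probes -0.10 and -0.11. None of the 6 genes passed the limma threshold in it.

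**Figure D3:**
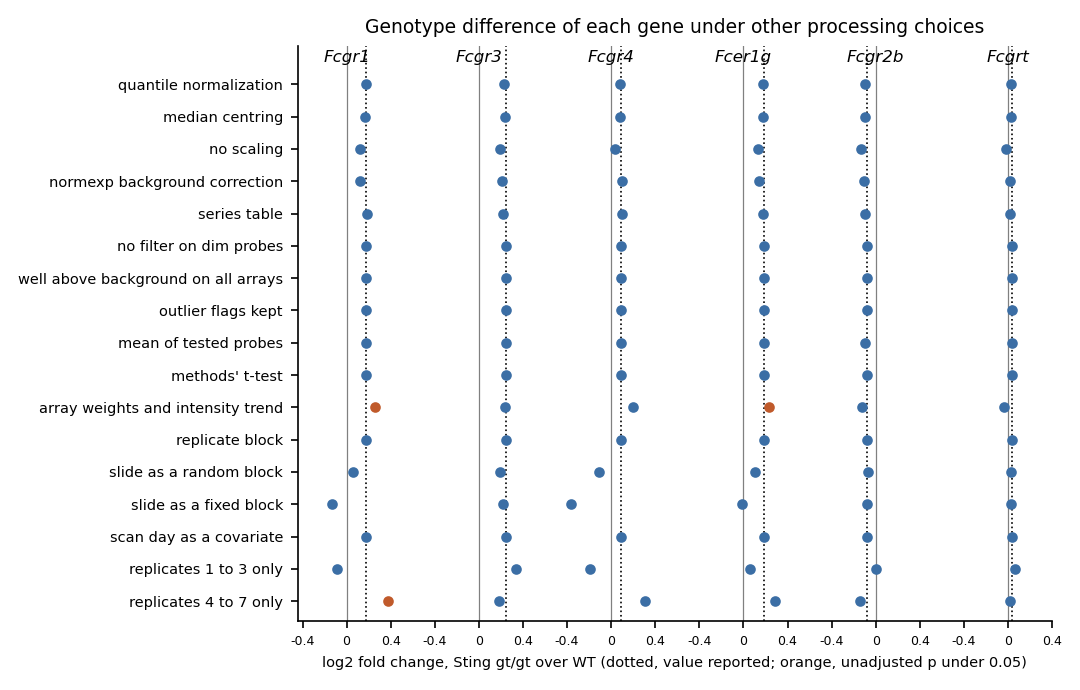
Log2 fold change (Sting gt/gt over WT) of each gene under other processing choices, 1 per row, with each gene's own axis side by side and its 0 as a grey line. The dotted line is the value reported for 7 mice a group, and orange points passed an unadjusted p of 0.05. Fcgr3 stays above 0 and Fcgr2b below 0 in every row, while Fcgr1 and Fcgr4 cross 0 when slide is a fixed block and in replicates 1 to 3.

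Across the 14 mice, each member was set beside the genes with the most similar profile, by the root mean square (RMS) difference of log2 signals after each gene's mean was taken off. For Fcgr1 these were Slc46a1, a folate transporter, Ifitm7, of the interferon-induced transmembrane family, and Top1mt, a mitochondrial topoisomerase, at 0.10 to 0.12, beside 0.22 for the profile of Fcgr1 itself. For Fcgr4 they were Batf2, a transcription factor that interferon induces, Psmb9, a subunit of the immunoproteasome, and Clnk, an adaptor of immune receptors, at 0.12 to 0.15 beside 0.30. For Fcgr3 they were Rab31, Plp2 and Atg10 at 0.11 to 0.16 beside 0.45, and the profile of Fcgr3 followed scan day. For Fcer1g they were Igsf8, Naglu and Atp9b at 0.08 to 0.09 beside 0.18, for Fcgr2b Aph1b, Hps6 and Ctps2 at 0.10 to 0.12 beside 0.20, and for Fcgrt Fam234a, Igfbp7 and the complement gene C1qb at 0.11 to 0.12 beside 0.22. These are descriptions over 14 arrays that share scan days and slides.

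Among the members themselves, Fcgr1 and Fcer1g were the closest pair, with an RMS difference of 0.17, and 0.808% of genes with a symbol lay nearer to Fcgr1 than Fcer1g did. Fcgr1 and Fcgr4 differed by 0.21, with 5.52% of genes nearer to Fcgr1. Fcgr4 and Fcer1g differed by 0.22, with 1.11% of genes nearer to Fcgr4. Fcgr3 lay farthest from the other members, at 0.40 to 0.47, beside 0.45 for the profile of Fcgr3 itself. While 81.3% of genes lay nearer to Fcgr1 than Fcgr3 did, the share depends on the gene measured from. Measured from Fcgr3, 31.8% of genes lay nearer than Fcgr4, 23.2% nearer than Fcer1g and 24.8% nearer than Fcgrt. A wide profile lies far from any flatter one, so these distances do not single out Fcgr3 as unlike the other receptors. Fcgr2b differed from Fcgr1 and from Fcgr4 by 0.34, with 51.1% of genes nearer to Fcgr1 than Fcgr2b was. Measured from Fcgr2b, 53.0% of genes lay nearer than Fcgr4 and 8.95% nearer than Fcer1g. The difference to Fcer1g, 0.23, was still above the 0.20 of the profile of Fcgr2b itself.

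The signalling genes around the receptors were compared in the same way. Of 65 genes in 6 lists, 58 were measured, and 1 passed an unadjusted p of 0.05 in the comparison of 7 against 7. Of the 26 genes of activating signalling (kinases, adaptors, phospholipases and cytoskeletal regulators), none passed, 20 were above 0 and the median log2 fold change was 0.06. Syk, the kinase that docks on Fcer1g, had a log2 fold change of -0.01 (SE 0.10), and Lyn, the Src-family kinase that starts the signal, 0.02 (SE 0.10). Btk had 0.08 (SE 0.11) and Plcg2, the phospholipase downstream of both, 0.07 (SE 0.13).

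Of the 8 genes of inhibitory signalling none passed, with a median of 0.02. Inpp5d had a log2 fold change of 0.06 (SE 0.11, limma p = 0.586, exact permutation p = 0.544), and Ptpn6, which encodes the phosphatase SHP-1, 0.10 (SE 0.09, limma p = 0.264, exact permutation p = 0.140). The 5 genes of the NADPH oxidase, which makes the oxidative burst that Fc receptors trigger, all lay above 0 with a median of 0.15 and none passed. Of 11 other immunoglobulin receptors none passed, and Trim21, the cytosolic IgG receptor, had -0.11 (SE 0.10, limma p = 0.296, exact permutation p = 0.240). Of the IgG ligand genes only Jchain, which encodes the chain that joins IgM and IgA rather than IgG, was measured (log2 fold change 0.19, SE 0.19), and Ighg1, Ighg2b, Ighg2c, Ighg3 and Igkc were not analysed here.

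In replicates 1 to 3 and 4 to 7 the 58 genes gave 4 and 7 calls, against 5.56% and 22.1% of all genes. Among the 7 in replicates 4 to 7 was Inpp5d, with a log2 fold change of 0.24. Without Sting gt/gt replicate 1 the comparison over both days called 9 of the 58 genes in place of 1, and 1967 of all genes in place of 868.

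**Figure D4:**
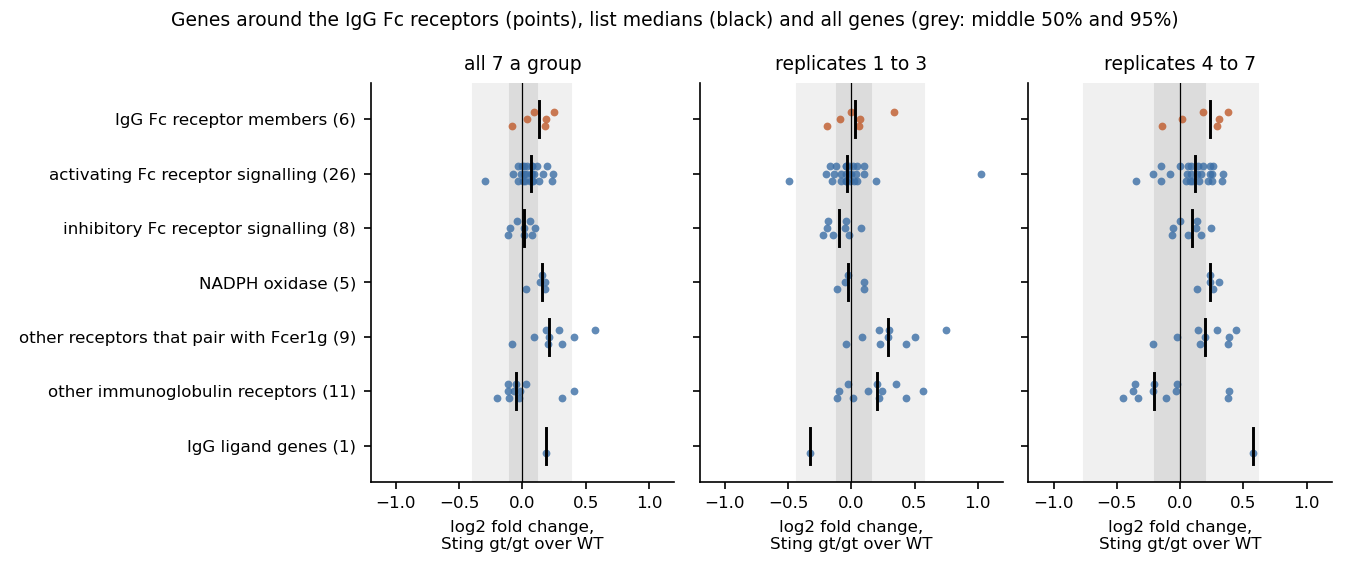
Log2 fold change (Sting gt/gt over WT) of each gene of the Fc receptor lists, a point per gene with the list median as a black bar, for 7 mice a group and for replicates 1 to 3 and 4 to 7. Grey bands hold the middle 50% and 95% of all genes, and numbers in parentheses count the genes measured. The members lie inside the wider band in all 3 panels, and their median goes from 0.03 to 0.24 between the scan days.

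The gene that passed was Pira2, an activating paired immunoglobulin-like receptor that also signals through Fcer1g, and its 2 probes of the same accession moved in opposite directions. On the brighter probe the log2 signal spanned 0.69 to 1.77 in WT mice (median 1.42) against 1.42 to 2.21 in Sting gt/gt animals (median 1.85), a log2 fold change of 0.57 (SE 0.18, limma adjusted p = 1.0, exact permutation p = 0.0117). On the other probe it spanned -1.75 to -0.38 in WT mice (median -1.01) against -2.65 to -1.48 in Sting gt/gt animals (median -2.14), a log2 fold change of -0.95 (SE 0.24, limma adjusted p = 1.0, exact permutation p = 0.00466). On each scan day the groups did not overlap on either probe. Of all genes, 9.23% lay fully apart in this way on the first day and 14.7% on the second. The share that lay apart on both days was not computed. By day, the log2 fold changes of Pira2 were 0.75 and 0.44 on the brighter probe and -1.07 and -0.87 on the other. Pira2 is therefore given no direction. Pira genes are a family of near-identical copies, and which of them each probe binds was not tested. Among 28 further probes of 22 pathway genes that are not the brightest of their gene, the second Pira2 probe was the only one that passed, against 3.43% of all tested probes.

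The stretch of chromosome 1 from Fcgr2b to Fcer1g holds 6 further measured genes. None of them passed, with log2 fold changes from -0.12 (Cfap126) to 0.11 (Sdhc).

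Across the series, 31766 probes were measured on arrays whose 75th percentile of processed signal ran from 562 to 766, with 30783 to 34400 probes well above background. The Sting gene itself had a log2 signal of 2.35 to 2.85 in WT mice and 2.45 to 2.77 in Sting gt/gt mice (log2 fold change 0.04, SE 0.10, limma p = 0.719, exact permutation p = 0.651). The golden ticket allele is a point mutation, so this level does not check the labels. Over both days 1 of the 8 monocyte markers (Ms4a6c, log2 fold change 0.28) passed above 0, and no marker of 9 other cell types passed. The defining T cell marker Cd3e, macrophage marker Adgre1 and neutrophil marker S100a8 were all measured. Each array is 1 mouse, and the p-values rest on the spread between the arrays of a group. Mouse and slide cannot be fully parted in that spread, since all Sting gt/gt arrays of replicates 4 to 7 shared 1 slide.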

How the data were processed

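Splenocyte RNA of 14 mice was hybridised to Agilent arrays in 1 colour, with an array for each mouse. Per the file headers, the authors made the intensity values with Agilent Feature Extraction 11.0.1.1, which subtracts each spot's background and does not scale between arrays. The authors also deposited a table of log2 values for the same probes, whose normalization is not given in the sources used here, and whose values correlated with the log2 intensities of the same array at 0.997 to 0.999.

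The log2 of each processed intensity was taken relative to the 75th percentile of its array. Control spots and outlier-flagged spots were dropped, and replicate spots averaged. A probe was tested when well above background on at least 7 of 14 arrays, which kept 31766 of 56605 probes. Probes were named by accession through RefSeq (58.3% matched a symbol), and a gene was read from its brightest tested probe, which gave 24908 genes. Sting gt/gt and WT mice were compared with lmFit and eBayes of limma 3.58.1 (R 4.3.3), without covariates, with an unadjusted p of 0.05 and with Benjamini-Hochberg adjustment over all genes. Scan days were compared in a model of 4 groups. The fit was tested on simulated data. Single genes were also compared by exact permutation, with arrays permuted within scan days where days were taken apart, and 3 against 3 arrays cannot reach a p below 0.1. The number of arrays limits the precision.

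The members, the gene lists and the tests were chosen with earlier results of these data known. Named were the 6 members, Syk, Lyn, Inpp5d, Ptpn6, Btk, Plcg2, B2m and Trim21, every list gene past the threshold, and the 3 genes with the profile nearest to each member. Jchain, Cfap126, Sdhc and Ms4a6c were named after their values were seen. Some marker genes are not reported here.

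Both genotypes carry the replicate numbers 1 to 7. Over genes, arrays with the same number deviated from their group means with correlations of 0.16 to 0.53, which became -0.41 to 0.25 when the mean of each scan day was removed, so numbers and scan days go together. Alternatives covered scaling, background correction, the authors' table, probe filters, outlier flags, probes per gene, the methods' Shapiro-Wilk and t-test or Mann-Whitney test, array weights, replicate number, slide, scan day and each array left out. Figures were made with matplotlib 3.10.9.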

Additional observations from a re-analysis of the deposited data

Results flagged for a closer look

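Within a group of 7 mice, 1 mouse stood apart from the other 6 in 5 of 50 gene and group combinations examined. Chance alone gives about 1 in 20 for genes taken regardless of their values. Some genes here, Oscar and Plcg1 among them, were picked for an extreme fold change in their list, and that rate does not cover them. Of the members, a mouse stood apart for Fcgr4 in WT mice, where replicate 7 had a log2 signal of 2.53 and the next mouse 1.96. In WT mice replicate 2 had the highest Inpp5d signal, 3.35 against 3.04 in the next mouse, and replicate 4 the highest signal of Oscar, a receptor that pairs with Fcer1g, at -1.30 against -1.96. In Sting gt/gt mice replicate 1 had the lowest Btk signal, 2.40 against 2.74, and the highest Plcg1 signal, -2.52 against -3.99. Oscar and Plcg1 were looked at after their values were seen.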

How the results depend on the processing

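Fcgr3 and Fcgr2b kept their direction, and no call, in the comparison of 7 against 7 under each of 31 alternatives. The count of called genes, 868 of all genes and 1 of the pathway lists, was 1928 and 3 in the authors' table, 1812 and 2 with scan day as a covariate, and 5805 and 9 in replicates 4 to 7 alone. It was 4360 of all genes when arrays were weighted with an intensity trend, 1416 with the replicate block, which changed no call of a member, and 445 for a random slide block, and 5 of the pathway lists in replicates 1 to 3 alone. With arrays left out in turn it ran from 496 to 1967 and from 1 to 9. The cause was not tested.

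With array weights, Fcgr1 was 0.26 and Fcer1g 0.23, both past the threshold, Fcgrt -0.036 and Syk 0.013. In replicates 4 to 7 fitted alone Fcgr1 was 0.38 and past it, Fcer1g was 0.29 and not past it, and in replicates 1 to 3 Fcgr1 was -0.089, Fcgr4 -0.19, Lyn -0.081, Inpp5d -0.19, Btk -0.021 and Plcg2 -0.17. With slide as a random block Fcgr4 was -0.11, Lyn -0.055, Inpp5d -0.054, Btk -0.017, Plcg2 -0.072 and B2m 0.0056. With slide as a fixed block, which rests on 5 arrays of the first scan day, Fcgr1 was -0.14, Fcgr4 -0.37, Fcer1g -0.011, Lyn -0.15, Inpp5d -0.20, Ptpn6 -0.022, Btk -0.12, Plcg2 -0.23 and B2m 0.0079. Without scaling Fcgrt was -0.015 and Lyn -0.038, and Lyn was -0.0056 under quantile normalization, -0.025 with normexp and -0.012 in the authors' table. The mean of both Pira2 probes was -0.19. With arrays left out in turn Fcgrt ran from -0.014 to 0.14, Syk from -0.039 to 0.032, Lyn from -0.026 to 0.066, Plcg2 from -0.00011 to 0.16 and B2m from -0.072 to 0.032.

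The scan-day values were recomputed under alternatives chosen after the data were seen. In replicates 1 to 3, Fcer1g was -0.019 under median centring and -0.0098 without scaling, Fcgrt -0.011 and -0.0015 under the same, and Fcgr2b 0.022 under quantile normalization and 0.020 in the authors' table. In replicates 4 to 7, Fcgrt was -0.016 under quantile normalization, -0.025 without scaling and -0.018 in the authors' table. Median centring put the change of Fcgrt between days at 0.066. For all genes it moved the median difference between the scan days from -0.01 to 0.17. It moved their median change between days from -0.004 to 0.11. The scan-day difference of Fcgr1 was 0.16 under median centring, 0.010 without scaling and 0.024 in the authors' table, and that of Fcer1g was -0.00091 in the authors' table. Median centring put Fcer1g (0.25), Fcgr4 (0.41) and Fcgrt (0.36) past the threshold of that difference, and Fcgr4 (0.61) past that of the change between days. With arrays left out in turn, replicates 1 to 3 gave -0.026 to 0.12 for Fcer1g, -0.16 to 0.0065 for Fcgr1, -0.12 to 0.11 for Fcgr2b and -0.088 to 0.32 for Fcgrt. Replicates 4 to 7 gave -0.066 to 0.072 for Fcgrt. The change between days gave -0.32 to 0.011 for Fcgr3 and -0.30 to 0.11 for Fcgrt, and the scan-day difference -0.086 to 0.024 for Fcgr1 and -0.0077 to 0.12 for Fcgr2b.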
